A study of Mus musculus with 10 samples.

Results

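Replacement histone variants, encoded by 10 genes, were followed in the whole brain of newborn mice. The genes were those of the deposited table whose Ensembl identifier maps, in the GENCODE M21 annotation, to *H2afz*, *H2afv*, *H2afx*, *H2afy*, *H2afy2*, *H2afj*, *H3f3a*, *H3f3b*, *H1f0* and *Cenpa*. All 10 were found among the 18444 genes of the table, and all 10 passed a filter on low values, a mean of 10 or more, that 17020 genes passed. The rule that picks the genes uses names and no measured value, and it was set with earlier results of these data known.

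Most histones are made only while DNA is copied, from clustered genes whose mRNAs end in a stem-loop in place of a poly-A tail. Replacement variants are made outside S phase as well, from single genes with ordinary polyadenylated mRNAs, and take the place of the standard histones in chromatin that is transcribed, repaired, silenced or built into a centromere. Many neurons have stopped dividing by the first days after birth and then last for life, so that in the brain the replacement variants come to make up much of the histone pool.

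The mice were male C57BL/6N animals at postnatal day 3. HT mice were heterozygous for *Arid1b*, which encodes a DNA-binding subunit of the BAF chromatin remodelling complex. They carried a germline, protein-truncating edit in exon 5 in every cell and came from 1 mutant line, bred from HT males and wild-type females. WT mice were of the same strain, age and sex, without the edit, and each group held 5 mice with 1 poly-A-selected library per mouse. Whether mice of the same number shared a litter is not given in the sources used here. Because RNA came from the whole brain, fewer cells of a type and less RNA per cell cannot be told apart in any value below.

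The unit was the normalised read count, the authors' estimate of reads per gene divided by a size factor for the library, and totals per library ranged from 27.2 M to 29.03 M. *Arid1b* itself had 3108 to 3597 normalised read counts in the WT libraries and 1505 to 2372 in the HT libraries, without overlap, a log2 fold change of -0.68 ± 0.11 (SE, limma; adjusted p = 0.390 with all 10 libraries and 0.000247 without the library HT 4). HT 4 stood apart from the other 9 libraries. On the log2 scale its genes lay a median of 0.209 away from their means, where the other libraries lay 0.0772 to 0.108 away, and it was high for short genes (median deviation 0.17 in the tenth of genes with transcripts up to 761.5 bases) and low for long ones (-0.26 in the tenth from 4912.5 bases). Of the 10 variant genes 9 have transcripts shorter than the median of all genes (2199.5 bases). HT 4 was the highest library for 6 of the 10 (24.7% of all genes were highest in HT 4), and each comparison is given with and without it. Markers of neurons, dividing cells, astrocytes and radial glia, the oligodendrocyte lineage, microglia, endothelium, erythroid cells and choroid plexus were detected in every library. The summed choroid plexus markers were lower in HT (7072 to 10021 normalised read counts) than in WT (10658 to 14385), without overlap. With each marker counted equally, as the mean deviation of log2 values from the mean of the gene, the groups overlapped. That mean was -0.36 to -0.085 in HT and -0.14 to 0.38 in WT. The part of these markers in the results was not tested.

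None of the 10 genes passed the test across all genes between HT and WT. By limma with Benjamini-Hochberg adjustment, 0 of the 10 passed an adjusted p of 0.05 (adjusted p = 0.9997 for each), as did 0 of all 17020 genes tested (0%). Without adjustment, 0 of the 10 had a p under 0.05, against 580 of all genes (3.41%, and 1.93% lower in HT), and by an exact permutation test over all assignments of libraries to groups again 0 of the 10 did. In none of the 10 did the HT and WT libraries fail to overlap, which 0.629% of all genes did. A total of 6 was higher in HT and 4 lower, where 53.6% of all genes were lower, and the median size of the log2 fold change, regardless of sign, was 0.058 for the 10 and 0.061 for all genes. The unadjusted 95% intervals reached from -0.62 at the lowest (*Cenpa*) to 0.49 at the highest (*H2afj*), and for the other 8 they lay within -0.26 and 0.36.

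Leaving out HT 4 turned this picture toward lower values. Of the 10 genes, 8 were then lower in HT and 2 higher, while 50.4% of all genes were lower. The genes with an unadjusted limma p under 0.05 were then *Cenpa*, *H3f3b* and *H2afz*, which is 3 of 10, all lower, against 8.38% of all genes in either direction and 3.69% in the lower one. With adjustment over all genes 0 of the 10 passed (smallest adjusted p = 0.447, limma), as against 2 of 17015 genes (0.0118%), *Arid1b* and *Adamtsl3*, and the HT and WT libraries overlapped in all 10, as they did not in 2.96% of all genes.

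**Figure D1:**
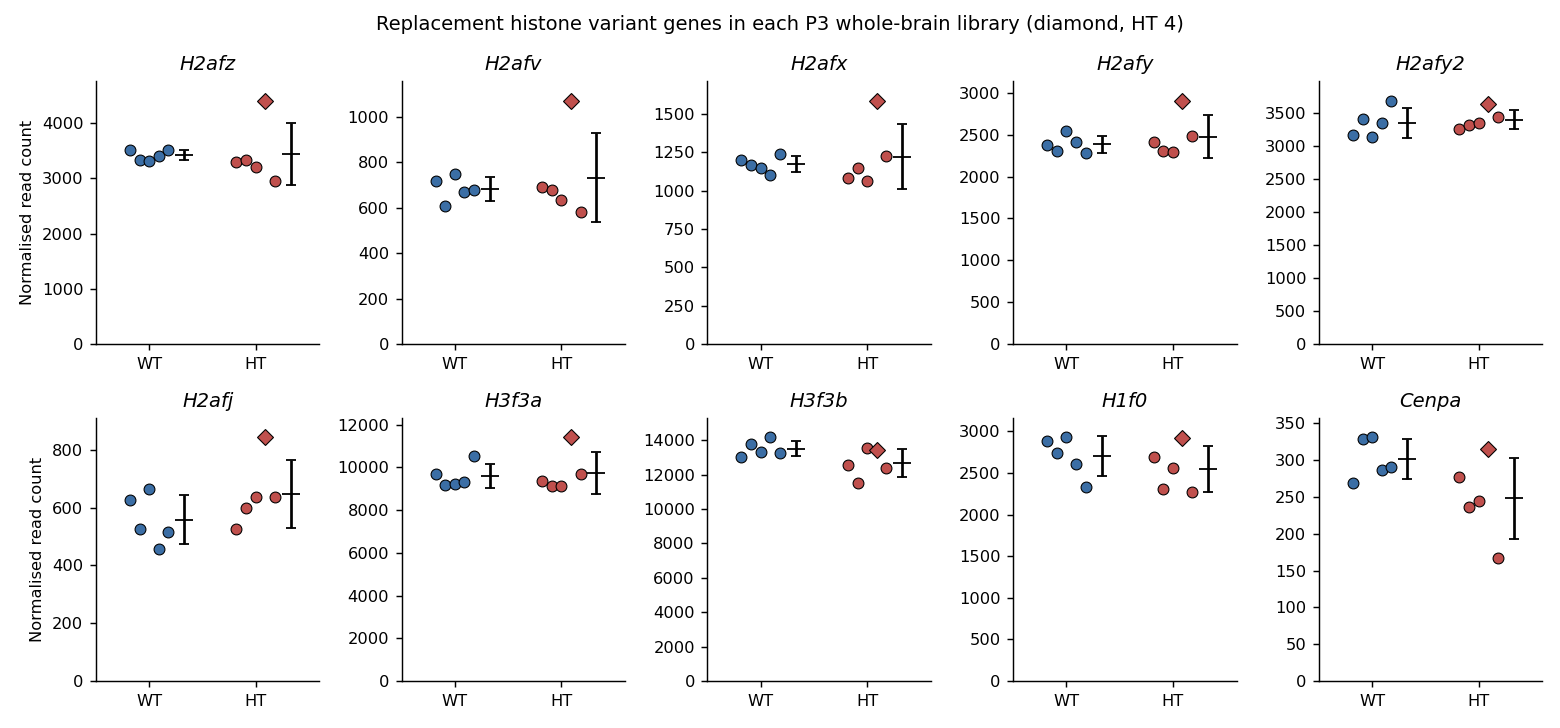
Normalised read counts (y axis, from 0) of the 10 replacement histone variant genes in each library, with 5 WT libraries in blue and 5 HT libraries in red, HT 4 as a diamond, and the mean with its SD beside each group. HT 4 is the highest of all 10 libraries for 6 genes (*H2afz*, *H2afv*, *H2afx*, *H2afy*, *H2afj* and *H3f3a*), and in every panel the groups overlap.

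**Figure D2:**
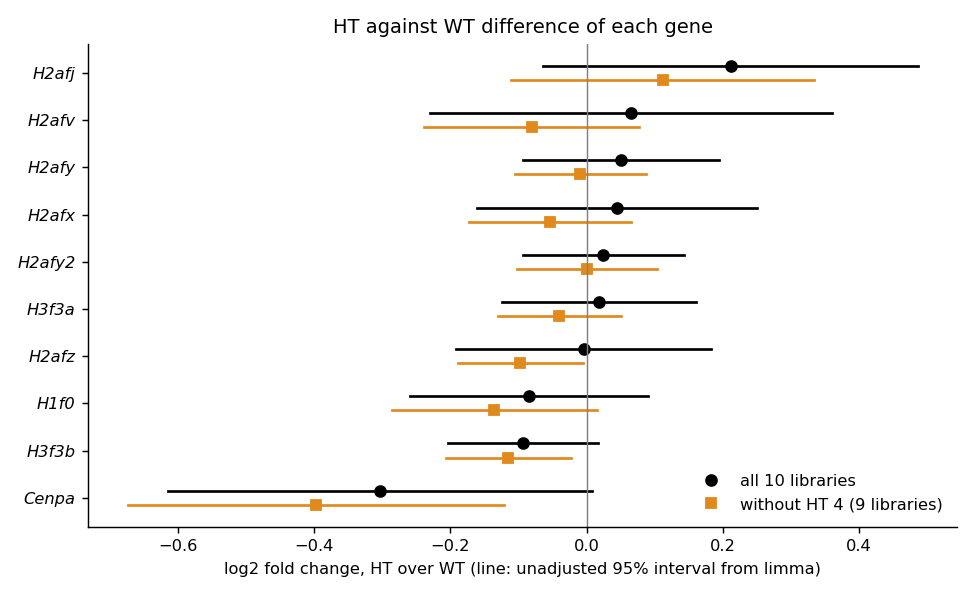
Log2 fold change of HT over WT (x axis) for each gene with its unadjusted 95% interval from limma, with all 10 libraries (black circles) and without HT 4 (orange squares). With all libraries every interval includes 0, and without HT 4 those of *Cenpa*, *H3f3b* and *H2afz* lie below 0.

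The histone H3.3 protein, which marks transcribed genes and fills gaps left by lost nucleosomes, is made from a pair of genes, *H3f3a* (ENSMUSG00000060743, GRCm38 chr1:180800832-180813943, minus strand) and *H3f3b* (ENSMUSG00000016559, GRCm38 chr11:116021912-116027962, minus strand). The pair is known to encode the same protein, so the transcripts can be told apart only because their bases differ. Reads were assigned over whole transcripts, of which the coding bases are a part. The first 120 coding bases are shown as an example of the differences, with the bases that differ between the genes in capitals:
H3f3a: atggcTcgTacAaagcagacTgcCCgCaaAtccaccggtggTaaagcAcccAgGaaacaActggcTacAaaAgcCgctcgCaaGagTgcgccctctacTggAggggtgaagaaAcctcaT
H3f3b: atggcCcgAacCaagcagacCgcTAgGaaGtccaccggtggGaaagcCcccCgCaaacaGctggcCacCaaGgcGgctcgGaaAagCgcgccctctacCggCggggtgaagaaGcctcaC
Over the 411 coding bases 95 differed, of which 81 were at the third position of a codon, and the longest identical run was 23 bases. No word of 31 bases occurred in transcripts of both genes. With other genes *H3f3a* shared 17.5% of its words of 31 bases, spread over 704 genes, and *H3f3b* shared 11.2%, spread over 5.

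*H3f3b* had 13058, 13793, 13328, 14181 and 13264 normalised read counts in WT 1 to WT 5 and 12540, 11541, 13534, 13426 and 12393 in HT 1 to HT 5. The libraries HT 1, HT 2 and HT 5 were below every WT library, and HT 3 and HT 4 were within the WT range. The log2 fold change was -0.09 ± 0.05 (SE, limma; 95% interval -0.20 to 0.02, unadjusted p = 0.0880), and the exact permutation p was 0.0873. Without HT 4 the log2 fold change was -0.12 ± 0.04 (limma, unadjusted p = 0.0176, adjusted p = 0.503). The direction was the same in every alternative run, over which the log2 fold change ranged from -0.12 to -0.06.

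*H3f3a* lay closer to its WT level in HT. It had 9703, 9192, 9245, 9300 and 10519 normalised read counts in WT 1 to WT 5 and 9375, 9108, 9116, 11416 and 9678 in HT 1 to HT 5. HT 4 was above every other library, and HT 2 and HT 3 were just below the WT range. This gave a log2 fold change of 0.02 ± 0.07 (SE, limma; 95% interval -0.12 to 0.16) for the 10 libraries and -0.04 ± 0.04 without HT 4, so that its sign rested on that library.

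Within the pair, counted per kilobase of the median coding transcript, *H3f3a* took 72.6% ± 1.56 of the H3.3 transcripts in WT and 74.1% ± 1.65 in HT (SD over 5 mice). The share is free of library scaling. Over all 10 libraries it ranged from 71.04% to 76.1%, the groups overlapped, and the difference of 1.52 percentage points was not larger than the spread (exact permutation p = 0.167, adjusted over 3 shares 0.50). Without HT 4 it was 1.03 percentage points (exact permutation p = 0.333). The share itself depends on the length used: without dividing by length *H3f3a* took 43.4% in HT and 41.5% in WT, since several short fragments are annotated as coding transcripts of *H3f3a*.

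Of the 8 genes that place H3.3 in chromatin (HIRA complex members, the ASF1 chaperones, *Daxx* and *Atrx*), 3 were higher and 5 lower in HT, and 0 passed the test in either direction. The median log2 fold change was -0.06, against -0.01 over all genes. The smallest p values were those of *Ubn1*, a HIRA partner, with a log2 fold change of -0.12 ± 0.06 (1401 ± 95.2 normalised read counts in WT against 1292 ± 77.5 in HT, SD over 5 mice), and *Daxx*, the chaperone that works with *Atrx* at repeats, with -0.13 ± 0.09 (SE, limma). Without HT 4, 4 of the 8 genes were higher and 4 lower, with a median log2 fold change of 0.0029. *Daxx* was then at -0.20 (limma, unadjusted p = 0.00968, adjusted p = 0.464). *Atrx* ranged from 10507 to 13849 normalised read counts in 9 libraries and was at 5308 in HT 4.

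H2A.Z, the variant that flanks the start sites of active genes and is swapped in by the SRCAP and TIP60 remodellers, also comes from a pair of genes: *H2afz* (ENSMUSG00000037894, GRCm38 chr3:137864487-137866922, plus strand) and *H2afv* (ENSMUSG00000041126, GRCm38 chr11:6427229-6444443, minus strand). Their first 120 coding bases are shown in the same way, with the differing bases in capitals:
H2afz: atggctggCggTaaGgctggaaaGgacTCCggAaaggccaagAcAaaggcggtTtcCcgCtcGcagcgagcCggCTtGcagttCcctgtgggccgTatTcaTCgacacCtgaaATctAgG
H2afv: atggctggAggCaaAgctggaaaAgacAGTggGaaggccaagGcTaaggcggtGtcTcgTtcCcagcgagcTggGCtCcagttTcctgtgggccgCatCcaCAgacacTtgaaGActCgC
Of 387 coding bases 81 differed, the longest identical run was 14 bases, and no word of 31 bases was shared. With other genes *H2afz* shared 18.8% of its words of 31 bases, nearly all with *Gm8203*, a processed pseudogene listed at a mean of 38.1 normalised read counts.

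*H2afz* had 3518, 3336, 3322, 3408 and 3514 normalised read counts in WT 1 to WT 5 and 3303, 3331, 3208, 4410 and 2955 in HT 1 to HT 5. The WT libraries lay close together, HT 1, HT 3 and HT 5 were below all of them, and HT 4 was far above all of them. Over the 10 libraries the log2 fold change was -0.0043 ± 0.09 (SE, limma; 95% interval -0.19 to 0.18). Without HT 4 it was -0.10 ± 0.04 (limma, unadjusted p = 0.0400, adjusted p = 0.576; exact permutation p = 0.0159), and with the length and GC trend of each library removed as well it was -0.08 (limma, unadjusted p = 0.0738).

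*H2afv* showed the same split of HT 4 from the rest. It had 716, 608, 748, 670 and 678 normalised read counts in WT 1 to WT 5 and 693, 679, 635, 1072 and 579 in HT 1 to HT 5. Apart from HT 4, which was at 161% of the mean of the others, the groups covered nearly the same range. Its log2 fold change was 0.07 ± 0.14 (SE, limma; 95% interval -0.23 to 0.36), and -0.08 ± 0.07 without HT 4.

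*H2afz* took 86.9% ± 0.909 of the H2A.Z transcripts per kilobase in WT and 86.4% ± 1.06 in HT (SD over 5 mice), and the difference was within the spread (exact permutation p = 0.405, adjusted over 3 shares 0.607). The lowest share of the 10 libraries was 84.5%, in HT 4, and the highest 87.9%. Of the 13 genes of the exchange machinery, 8 were higher and 5 lower in HT and 0 passed in either direction, with a median log2 fold change of 0.02. The smallest p values were those of *Vps72*, a subunit that binds H2A.Z, with -0.08 ± 0.06, and *Ruvbl1*, an ATPase of the remodellers, with 0.08 ± 0.07 (SE, limma). Without HT 4, 6 of the 13 genes were higher and 7 lower, with a median log2 fold change of -6.2e-05. *Srcap*, the ATPase that gives its complex its name, had 3043 to 4603 normalised read counts in 9 libraries and 1715 in HT 4.

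*H2afx* (ENSMUSG00000049932, GRCm38 chr9:44334694-44336077, plus strand) encodes H2A.X, which is phosphorylated around DNA breaks. It differs from the other 9 in the end of its mRNA. The histone stem-loop was searched on the transcript strand of all coding transcripts by the bases that most such stem-loops share, and of the 10 genes only *H2afx* held it, 46 bases after the stop codon and 822 bases before the annotated transcript end, with the pattern in capitals:
H2afx: cacaaaGGCCCTTTTAAGGGCCaccacc
The pattern occurred in 44 of 67 clustered histone genes (65.7%) and in 72 of 21901 coding genes (0.329%). The poly-A signal AATAAA lay in the last 50 bases of a coding transcript in 8 of the 10 variant genes, all but *H2afx* and *H2afy*, in 65.7% of coding genes and in 20.9% of the clustered histone genes. Libraries selected for poly-A see the longer, polyadenylated form of *H2afx*, and a form that ends at the stem-loop would be missed.

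*H2afx* had 1105 to 1240 normalised read counts in the WT libraries and 1065 to 1587 in HT. HT 4 was the highest of the 10 libraries, and HT 1 and HT 3 were below the WT range. For *H2afx* the log2 fold change was 0.04 ± 0.09 (SE, limma; 95% interval -0.16 to 0.25), and -0.05 ± 0.06 without HT 4. Among the kinases that phosphorylate H2A.X (*Atm*, *Atr*, *Prkdc*) and its reader *Mdc1*, 1 of 4 was higher and 3 lower in HT, and 0 passed. The smallest p values were those of *Prkdc*, at 714 ± 37.1 normalised read counts in WT and 717 ± 142 in HT, and *Atm*, at 715 ± 165 and 717 ± 236 (SD over 5 mice), and both were at their lowest in HT 4. The sign of a log2 fold change is that of the difference of mean log2 values, which was below 0 for *Prkdc*, *Atm* and *Atr* although their HT mean counts were slightly above those of WT. Without HT 4 all 4 were higher in HT, and *Mdc1* alone of them had a log2 fold change, 0.16, past an unadjusted threshold (limma, unadjusted p = 0.0271, adjusted p = 0.539).

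*H2afj* (ENSMUSG00000060032, GRCm38 chr6:136808244-136810074, plus strand) encodes H2A.J, a variant known to build up in senescent cells. It had 625, 528, 664, 456 and 516 normalised read counts in WT 1 to WT 5 and 525, 599, 637, 845 and 636 in HT 1 to HT 5. Only HT 4 was above the WT range, and no HT library was below it. The log2 fold change, the highest of the 10, was 0.21 ± 0.13 (SE, limma; 95% interval -0.06 to 0.49, unadjusted p = 0.121; exact permutation p = 0.222). It was 0.11 ± 0.10 without HT 4 and 0.28 without HT 1 (limma, unadjusted p = 0.0441, and an adjusted p of at least 0.823 whichever library was left out).

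The macroH2A proteins carry a large extra domain and lie in silent chromatin, including the inactive X chromosome. Their genes are *H2afy* (ENSMUSG00000015937, GRCm38 chr13:56073619-56136361, minus strand) and *H2afy2* (ENSMUSG00000020086, GRCm38 chr10:61738665-61784147, minus strand). *H2afy* had 2285 to 2547 normalised read counts in WT and 2289 to 2907 in HT, with HT 4 the highest. It differed by 0.05 ± 0.07 on the log2 scale over the 10 libraries and by -0.01 ± 0.04 without HT 4 (SE, limma). *H2afy2* was the steadiest of the 10 in HT, with 3260 to 3632 normalised read counts there and 3128 to 3686 in WT, and a log2 fold change of 0.02 ± 0.05 (SE, limma; 95% interval -0.09 to 0.14). *H2afy* took 43.8% ± 2.55 of the macroH2A transcripts per kilobase in WT and 44.3% ± 1.54 in HT (SD over 5 mice; exact permutation p = 0.770).

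Of all H2A variant transcripts per kilobase, *H2afz* took 47.4% ± 0.792 in WT and 46.3% ± 1.74 in HT, and *H2afy2* followed with 17.3% ± 1.11 and 17.2% ± 1.57 (SD over 5 mice). The mean shares of *H2afy* were 13.5% and 13.7%, of *H2afx* 9.51% and 9.61%, of *H2afv* 7.14% and 7.34%, and of *H2afj* 5.20% and 5.87%, in WT and HT. The order of the 6 was the same in both groups.

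*Cenpa* (ENSMUSG00000029177, GRCm38 chr5:30666777-30674830, plus strand) encodes the H3 variant on which centromeres are built, and its mRNA is known to peak late in the cell cycle. It had 269, 328, 331, 287 and 290 normalised read counts in WT 1 to WT 5 and 277, 237, 244, 316 and 167 in HT 1 to HT 5. The libraries HT 2, HT 3 and HT 5 were below every WT library, with HT 5 far below, while HT 1 and HT 4 were within the WT range. The means were 301 ± 27.4 in WT and 248 ± 55.1 in HT (SD over 5 mice), and the log2 fold change, the lowest of the 10, was -0.30 ± 0.14 (SE, limma; 95% interval -0.62 to 0.01, unadjusted p = 0.0555; exact permutation p = 0.0635). It was -0.40 ± 0.13 without HT 4 (limma, unadjusted p = 0.00805, adjusted p = 0.447) and -0.17 without HT 5, so that its size rested on these libraries.

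Of the 4 genes that load CENP-A, 1 was higher and 3 lower in HT, and 0 passed. Without HT 4, 0 were higher and 4 lower. *Oip5*, a part of the Mis18 complex that primes the centromere, had 63.9 ± 11.4 normalised read counts in WT and 47.5 ± 18.7 in HT (SD over 5 mice), a log2 fold change of -0.48 ± 0.24 (SE, limma; unadjusted p = 0.0627). Without HT 4 it was at -0.66 (limma, unadjusted p = 0.00745, adjusted p = 0.447). In the annotation *Oip5* overlaps *Nusap1*, and reads of the overlap may be uncertain. *Hjurp*, the CENP-A chaperone, had 3761 ± 205 in WT and 3592 ± 300.4 in HT, a log2 fold change of -0.07 ± 0.06 (SE, limma).

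*H1f0* (ENSMUSG00000096210, GRCm38 chr15:79028450-79030504, plus strand) encodes the linker histone H1.0, known from other tissues to build up in cells that have stopped dividing. It had 2883, 2742, 2930, 2607 and 2337 normalised read counts in WT 1 to WT 5 and 2692, 2301, 2562, 2923 and 2268 in HT 1 to HT 5. HT 2 and HT 5 were below the WT range and the other HT libraries within it. *H1f0* gave a log2 fold change of -0.08 ± 0.08 (SE, limma; 95% interval -0.26 to 0.09), and -0.14 ± 0.07 without HT 4 (limma, unadjusted p = 0.0732).

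The variant transcripts were then set against markers of dividing cells. A score was taken as the mean, over 15 markers of dividing cells such as *Mki67* and *Top2a*, of the deviation of the log2 value from the mean of the gene. The score was highest in HT 4 (0.25) and lowest in HT 5 (-0.48), and ranged from -0.12 to 0.20 in WT, and the summed markers ranged from 6985 to 10920 normalised read counts in HT and from 8670 to 10911 in WT. Of 10 relations, those of *H1f0* and *Cenpa* passed a permutation test after adjustment over the 10.

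*H1f0* rose with the markers of dividing cells from library to library. Pearson's r was 0.90 over the 10 libraries (permutation p = 4e-05, adjusted 0.0004) and Spearman's rho 0.95 (permutation p = 0.0001, adjusted 0.001). It was 0.93 over the 8 libraries left without HT 4 and HT 5, the libraries farthest from the median score, and 0.88 over the 9 without HT 4. With the length and GC trend of each library removed it was 0.89 (permutation p = 8e-05, adjusted 0.0008). Each genotype alone holds 5 libraries, too few for a correlation, but among the WT libraries the lowest score and the lowest *H1f0* were both in WT 5 and the highest of each in WT 3, and among the HT libraries the lowest of each were in HT 5 and the highest in HT 4.

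*Cenpa* rose with the score as well, with r = 0.87 (permutation p = 0.00361, adjusted 0.0180) and rho = 0.71 (permutation p = 0.0265, adjusted 0.102). Pearson's r was 0.86 without HT 4 (permutation p = 0.00817, adjusted 0.0408), 0.63 without HT 5 and 0.57 over the 8 libraries without either, so that the relation rested largely on HT 5. With the length and GC trend removed it was 0.77 (permutation p = 0.0178, adjusted 0.0880). Among the HT libraries the lowest score and the lowest *Cenpa* were both in HT 5 and the highest of each in HT 4. Among the WT libraries the highest of each were in WT 3. The lowest WT value of *Cenpa*, however, was in WT 1 (269 normalised read counts, score 0.17), and the lowest WT score in WT 5 (-0.12). *H2afz* gave r = 0.67 (permutation p = 0.0584, adjusted 0.172), which was 0.72 without HT 4, 0.53 without HT 5 and 0.15 without either. *H2afx* gave r = 0.21 (permutation p = 0.511, adjusted 0.605), with HT 4 high and HT 5 above the middle of the other libraries.

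**Figure D3:**
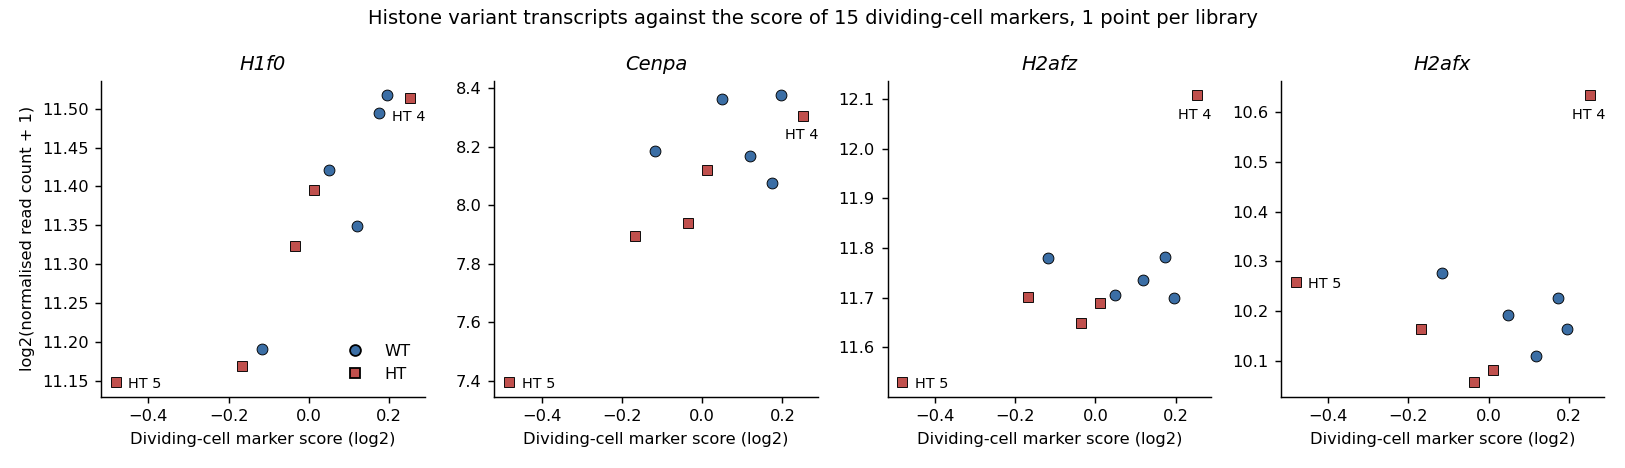
Log2(normalised read count + 1) of *H1f0*, *Cenpa*, *H2afz* and *H2afx* (y axis) against the score of 15 dividing-cell markers (x axis, log2), with 1 point per library, WT as blue circles and HT as red squares. *H1f0* follows the score through all 10 libraries (r = 0.90), while for *H2afz* r is 0.67 over all libraries and 0.15 when both HT 4 and HT 5 are left out.

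The promoters of these genes, taken as 250 bases before to 50 after the RefSeq start site on GRCm38.p6, were searched on both strands for CCAAT, the site of NF-Y, and for TTTGAA or TTCGAA, the element found in many promoters of genes expressed late in the cell cycle. Of the 10 genes 9 had an entry, all but *H2afx*. CCAAT lay in 7 of the 9, against 37.4% of 32841 promoters, and at least 2 copies in 5 of the 9, against 11.7%. TTTGAA or TTCGAA lay in 2 of the 9, *H2afv* and *Cenpa*, against 19.2%. The promoters of *Cenpa*, *H3f3b* and *H1f0* are shown since these genes gave the lowest fold changes and, for *H1f0*, the closest relation to dividing cells, in transcript direction with the matches in capitals:
Cenpa, chr5:30666636-30666935, plus strand: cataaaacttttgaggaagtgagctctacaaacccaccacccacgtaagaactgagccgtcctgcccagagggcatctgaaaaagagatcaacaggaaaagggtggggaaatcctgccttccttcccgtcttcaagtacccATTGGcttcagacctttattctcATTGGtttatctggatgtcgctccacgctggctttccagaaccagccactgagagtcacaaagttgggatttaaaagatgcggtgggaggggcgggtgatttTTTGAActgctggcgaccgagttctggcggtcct
H3f3b, chr11:116024455-116024754, minus strand: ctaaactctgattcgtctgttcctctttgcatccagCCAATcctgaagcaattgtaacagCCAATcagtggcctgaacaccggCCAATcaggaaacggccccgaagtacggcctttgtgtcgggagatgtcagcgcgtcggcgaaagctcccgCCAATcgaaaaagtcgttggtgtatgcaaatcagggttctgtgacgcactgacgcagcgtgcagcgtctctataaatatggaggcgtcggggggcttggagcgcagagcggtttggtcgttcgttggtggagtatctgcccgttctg
H1f0, chr15:79027962-79028261, plus strand: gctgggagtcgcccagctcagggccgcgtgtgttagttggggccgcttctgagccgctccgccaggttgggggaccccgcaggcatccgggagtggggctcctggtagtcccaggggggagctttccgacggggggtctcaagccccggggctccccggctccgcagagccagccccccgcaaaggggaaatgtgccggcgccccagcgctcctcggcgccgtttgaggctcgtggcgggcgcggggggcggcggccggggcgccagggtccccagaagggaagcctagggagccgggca
*H3f3b* held 4 copies of CCAAT, *Cenpa* held 2 of CCAAT and 1 of TTTGAA, and *H1f0* held no match, like *H2afy*. The *H1f0* window ended upstream of the GENCODE start of the gene (79028450), so the bases next to that start were not searched. The *H3f3b* window lay inside the GENCODE gene and did not reach its start on the minus strand (116027962). The windows of *H3f3a*, *H2afy* and *H2afy2* did not reach the GENCODE starts of their genes either. A match of letters is a description and not a bound site. The median GC content of the 9 windows was 65.7%, against 52.7% over all promoters.

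Levels of different genes were compared per kilobase of the median coding transcript length. *H3f3a* stood first with 16042 ± 1240.2 normalised read counts per kilobase (SD, n = 10), followed by *H3f3b* with 5816 ± 339 and *H2afz* with 4235 ± 469, and these 3 were above 99.5%, 97.5% and 96.04% of all genes tested. *H2afy2* (1550 ± 83.1), *H1f0* (1277 ± 124), *H2afy* (1222 ± 95.02) and *H2afx* (864 ± 108) came next. *Cenpa* (745 ± 134), *H2afv* (658 ± 127) and *H2afj* (501 ± 89.9) were lowest.

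Neighbours in this order were compared within libraries. *H1f0* was above *H2afy* in 6 of 10 libraries (exact sign-flip permutation p = 0.162; by the longest coding transcript 8 of 10, exact permutation p = 0.0352, not adjusted) and *Cenpa* above *H2afv* in 8 of 10 (exact permutation p = 0.0723, adjusted over 9 pairs 0.0813), so that by the median length these neighbours did not differ beyond their spread. *H2afx* was above *Cenpa* in 8 of 10 (exact permutation p = 0.0254, adjusted 0.0326). The other 6 pairs kept their order in 10 of 10 libraries (exact permutation p = 0.00195, the smallest possible, adjusted 0.00293). With the longest coding transcript as the length 5 of 10 genes kept their rank, as *H3f3b* (5213) passed *H3f3a* (3402) and *Cenpa* (187) fell to the last place, since *Cenpa* and *H3f3a* have short annotated coding fragments.

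**Figure D4:**
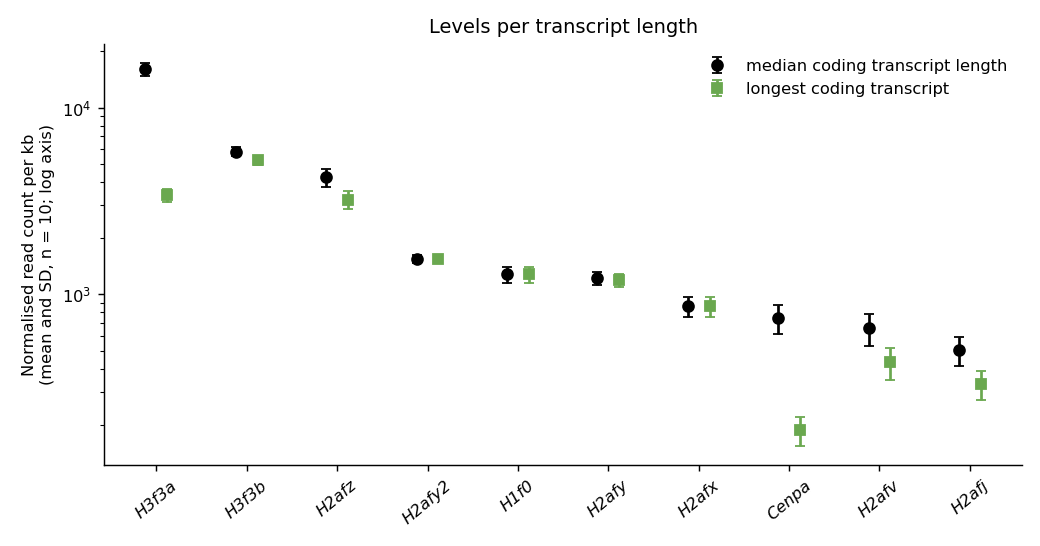
Normalised read counts per kilobase (y axis, log scale) of the 10 genes as mean and SD over 10 libraries, by the median coding transcript length (black circles) and by the longest coding transcript (green squares). *H3f3a*, *H3f3b* and *H2afz* are the highest of the 10 by either length, and the places of *H3f3a* and *Cenpa* depend on the length used.

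Genes that serve several histones gave no call either. Of 8 general chaperones, 2 were higher and 6 lower in HT (1 and 7 without HT 4), and 0 passed. *Supt6* and *Supt16*, which carry nucleosomes past RNA polymerase, had the smallest p values, with log2 fold changes of -0.10 ± 0.05 and -0.07 ± 0.05 (SE, limma). Of 6 genes that form the stem-loop end of standard histone mRNAs or drive their transcription, 4 were higher and 2 lower, and 0 passed. Among these the smallest p values were those of *Casp8ap2* (-0.13 ± 0.09) and *Npat* (-0.12 ± 0.09, SE, limma), both parts of the body in which histone mRNAs are made. Without HT 4, 2 of the 6 genes were higher and 4 lower.

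Over all 43 partner genes, 19 were higher and 24 lower in HT, 0 passed in either direction and 0 had an unadjusted limma p under 0.05, with a median log2 fold change of -0.02 against -0.01 over all genes. Without HT 4, 17 were higher and 26 lower, where 50.4% of all genes were lower, and 0 passed with adjustment. An unadjusted limma p under 0.05 was then found for 2 in each direction, against 8.38% of all genes. These were *Daxx* and *Oip5*, lower in HT, and *Mdc1* and *Ino80*, higher in HT. *Ino80*, of the H2A.Z exchange machinery, was at 0.14 (limma, unadjusted p = 0.0331, adjusted p = 0.563). The table held 12 other histone genes, of which 10 were tested, 8 were higher and 2 lower in HT, and 0 passed. Without HT 4, 3 were higher and 7 lower. The smallest p values were those of *Hist1h2bc* (0.22 ± 0.14) and *Hist1h4i* (-0.32 ± 0.26, SE, limma), and mRNAs of these genes without a poly-A tail would be missed by the selection. The near-identical copies *Hist2h2aa1* and *Hist2h2aa2*, named after their values were seen, share 89.6% and 100% of their words of 31 bases, each was listed at 0 in some libraries, and their values are uncertain.

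**Figure D5:**
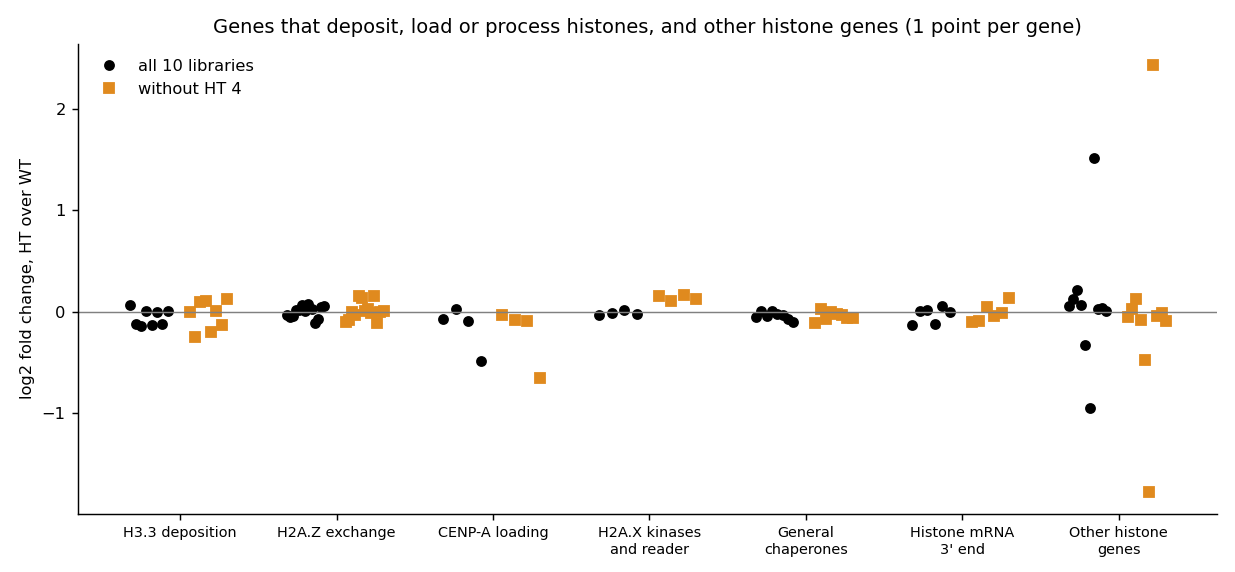
Log2 fold change of HT over WT (y axis) of the genes that deposit, load or process histones and of other histone genes, 1 point per gene, with all 10 libraries (black circles) and without HT 4 (orange squares). Most points lie near 0, *Oip5* is the lowest of the partner genes (-0.48), and the widest points among the other histone genes are the copies *Hist2h2aa1* and *Hist2h2aa2*.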

How the data were processed

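Poly-A-selected mRNA of 10 whole brains was sequenced, and per the submitters' processing notes and the study's methods reads were quantified with Salmon 1.1.0 on GRCm38 with a correction for GC bias, imported with tximport and normalised with DESeq2 1.30.1. The notes and the methods give different versions of R. The deposited signal values are the authors' normalised read counts (estimated reads divided by a size factor for each library). They were not whole multiples of 1 read, so tests that need counts were not run, and counting error was not modelled. The authors' annotation release is not given in the sources used here. Symbols, positions and lengths came from GENCODE M21 (18431 of 18444 genes matched).

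The 10 genes, the partner and marker lists and the tests were chosen with earlier results of these data known. The members, *Arid1b*, the 2 genes of each partner list with the smallest limma p and any gene of a list past the threshold are named, and for each member the coding gene with the highest r over the libraries. *Atrx*, *Srcap*, *Ino80*, *Mdc1*, *Mis18a*, *Adamtsl3* and the Hist2h2aa copies were named after their values were seen. Values of 1 single gene are not reported here.

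Values were analysed as log2(value + 1), which understates changes of low genes, with limma-trend (3.58.1, R 4.3.3, robust, two-sided, no covariate) on 17020 genes with a mean of at least 10 and Benjamini-Hochberg adjustment over all of them at 0.05. Single values were compared by two-sided exact permutation over all assignments of libraries to groups (smallest p 0.00794), and correlations by 100000 permutations (numpy 2.4.6, scipy 1.17.1). On simulated data for HT against WT with 16917 genes, limma called 99.0% of 99 genes changed 2-fold and 83.0% of 100 changed 1.5-fold. The simulation gave every gene the same spread beyond counting error and held no library like HT 4. These shares therefore need not hold for the real libraries. In those, *Arid1b*, at a fold of 0.62 in HT over WT, did not pass with all 10 libraries (limma, adjusted p = 0.390). Alternatives were the pseudocount, the filter, the scaling, sample weights, a length and GC trend, a replicate block and each library left out. The removal of that trend together with HT 4 was added after seeing the data.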

Additional observations from a re-analysis of the deposited data

Results flagged for a closer look

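In 30 groups of 5 libraries (the 10 variant genes, *Arid1b*, the 3 shares and the dividing-cell score, HT and WT apart), 4 held a library whose gap to its nearest neighbour exceeded Dixon's critical value of 0.71 of the range, and chance gives about 1 in 20 groups, or 1.5 of 30. All 4 were HT 4. It was the highest HT library for *H2afz* (4410 normalised read counts, next 3331), for *H2afv* (1072, next 693) and for *H3f3a* (11416, next 9678), and the lowest for *Arid1b* (1505, next 2142). HT 4 was also high for short and low for long genes, and its part in these values beyond the comparisons without it was not tested.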

How the results depend on the processing

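Over 22 alternatives none of the 10 genes passed the threshold (smallest adjusted p = 0.447, limma), and in 18 of 220 values the sign turned. *H2afy2*, *H2afj*, *H3f3b*, *H1f0* and *Cenpa* kept their sign throughout. Scaling to the same upper quartile gave *H2afz* 0.0036. Sample weights gave 2 genes called, *Arid1b* at -0.60, *H2afv* -0.068, *H2afx* -0.031, *H2afy* -0.012 and *H3f3a* -0.027. Removing the length and GC trend gave 1 gene called, *Arid1b* at -0.66, and 1 relation to dividing cells past the threshold. Removing it without HT 4 gave 2 genes called, *Arid1b* at -0.61, *H2afv* -0.062, *H2afx* -0.027 and *H3f3a* -0.012. With the longest transcript as length 5 genes kept their rank. The cause of these shifts was not tested.

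Same-numbered HT and WT libraries correlated at 0.08 to 0.09 in their deviations for replicates 1, 2, 3 and 5, and at -0.10 for replicate 4. At least 0.1 was asked of every pair, so the numbers were not taken as pairs. Even so, 4 of the 5 HT libraries correlated best with the WT library of their number. Whether the numbers stand for a shared litter or batch cannot be told from these values. With the replicate block 0 genes passed, *Cenpa* was at -0.30 and no call among the 10 changed, and with the block and the trend removed 1 gene passed and *Arid1b* was at -0.66.

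Leaving out 1 library at a time gave 0 (HT 1) to 2 (HT 4) genes called, 0 members and 0 partner or other histone genes called, 1 (without HT 2) to 2 relations, and *Arid1b* at -0.73 to -0.57. The log2 fold changes ranged from -0.097 to 0.047 for *H2afz*, -0.081 to 0.14 for *H2afv*, -0.053 to 0.090 for *H2afx*, -0.0089 to 0.077 for *H2afy*, 0.00040 to 0.060 for *H2afy2*, 0.11 to 0.28 for *H2afj*, -0.040 to 0.052 for *H3f3a*, -0.12 to -0.06 for *H3f3b*, -0.14 to -0.04 for *H1f0* and -0.40 to -0.17 for *Cenpa*. The HT minus WT share ranged from -0.92 to -0.11 percentage points for *H2afz*, -0.43 to 1.24 for *H2afy* and 1.03 to 2.15 for *H3f3a*. Changes under 1.5-fold were not simulated, and the 95% intervals give the sizes of change in these genes that 5 mice a group leave possible.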

Other observations

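*H1f0* and *Cenpa* were also set against the 8 marker lists, a comparison added after their relation to dividing cells had been seen, with adjustment over the 8. *H1f0* rose with astrocyte and radial glia markers (r = 0.77, permutation p = 0.00692, adjusted 0.0277; rho = 0.71, permutation p = 0.0261, adjusted 0.104), and r was 0.69 without WT 5 and HT 4, the libraries farthest from the median of that score. The list holds markers of astrocytes as well as of radial glia, the dividing stem cells of the developing brain. Which of these cells the relation follows was not tested. With neuron markers *H1f0* gave r = -0.54 (permutation p = 0.101, adjusted 0.204) and with choroid plexus markers r = 0.0036 (permutation p = 0.992, adjusted 0.992). For *Cenpa* the dividing-cell list alone passed by r (adjusted permutation p = 0.0289), and by rho no list did (smallest adjusted permutation p = 0.119).

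The coding gene whose pattern over the 10 libraries was most like that of a variant gene, among 14912, is given as a description, and HT 4 shapes many of these values. For *H1f0* it was *Man1c1* (r = 0.98, and 0.98 without HT 4) and for *Cenpa* *Tgif1* (0.98 and 0.98). For *H2afx* it was *Clta* (0.99 and 0.95), for *H3f3a* *Frmd8* (0.98 and 0.94), for *H2afv* *Zfp521* (0.97 and 0.91) and for *H2afy2* *Usp4* (0.96 and 0.95). For *H2afz* it was *Tmem9* (0.96 and 0.83), for *H2afy* *Tssc4* (0.94 and 0.75), for *H2afj* *Syt3* (0.92 and 0.82) and for *H3f3b* *Oip5* (0.90 and 0.91), which is itself among the genes that load CENP-A.

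*Cenpa* and genes that load CENP-A had very unequal levels. Per kilobase of the median coding transcript *Hjurp* had 1731 ± 122 normalised read counts (SD, n = 10), against 745 ± 134 for *Cenpa* itself, 174 ± 25.9 for *Mis18a* and 51.5 ± 15.7 for *Oip5*. *Hjurp* was also the only one of these 4 that was lowest in HT 4 (3202 normalised read counts, against at least 3451 in the other 9 libraries).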
